A study of Drosophila melanogaster with 12 samples.

Results

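Transcripts of 8 antimicrobial peptide genes (AttD, CecB, Def, DptB, Drs, edin, Mtk and Listericin) were followed in Drosophila melanogaster females that had mated on 2 days, on 1 day or not at all. Each gene was represented by the probe set carrying its symbol and no other, and each of the 8 genes had 1 such probe set, out of 11982 genes measured this way. RNA came from whole adults of LHM, a large outbred wild-type laboratory population, with 8 flies pooled for each of 4 arrays a group, so that a change cannot be placed in a tissue, and more cells of a type and more RNA per cell cannot be told apart. Double mated females met males on day 12 and again in the round of day 13, and single mated females were without males on day 12 and are taken to have mated in the round of day 13, where the available description breaks off. Virgins were left without males. All females were collected as virgins on day 9, housed singly, given live yeast on day 12 and briefly anesthetized with CO2, and the males were crosses between a pair of inbred lines derived from LHM. Mated females were frozen 6 hours after mating. The double mated group therefore differs from the single mated group both in the number of matings and in the time since the first one.

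Antimicrobial peptides are small proteins that insects secrete, largely from the fat body, into the hemolymph, and that some epithelia, the reproductive tract included, also make. Their genes are switched on mainly by NF-kappaB factors, Relish at the end of the Imd pathway and Dif and Dorsal at the end of the Toll pathway. Peptidoglycan of Gram-negative bacteria chiefly engages Imd, and that of many Gram-positive bacteria and fungal products chiefly engage Toll. Mating is known to alter the transcription of several of these genes in Drosophila females.

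All values are log2 RMA values, which have no true zero, and group values are mean ± SD with n = 4 arrays. The 12 arrays had medians between 5.97 and 6.07. Double mated replicate 4 stood apart: the SD over probe sets of its difference from the mean of the other arrays in its group was 0.24, while the remaining 11 arrays gave 0.132 to 0.185. The female label was borne out by the yolk protein genes Yp1, Yp2 and Yp3, at 15.14, 15.14 and 14.93 in double mated females, 15.12, 15.08 and 14.92 in single mated females and 15.03, 14.87 and 14.84 in virgins. The male accessory gland gene SP, which encodes the sex peptide, was at 4.03, 4.17 and 4.03 in the same groups, and Acp26Aa, the ovulin gene, at 3.58, 3.59 and 3.59, with neither called different in any comparison.

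Double mated females had the highest mean of the 3 groups for all 8 genes. Against virgins, 7 of the 8 were called higher in double mated females in limma (Benjamini-Hochberg adjusted p under 0.05 over 18769 probe sets), where 12.3% of all probe sets were called higher. Against single mated females 5 of 8 were called higher, where 3.55% of all probe sets were. In single mated females against virgins 1 of 8, Listericin, was called higher, where 4.49% of all probe sets were. None of the 8 was called lower in these comparisons, where 15.7%, 1.74% and 5.17% of all probe sets were, and without double mated replicate 4 the counts were again 7, 5 and 1. The median change of the 8 genes was 1.28 for double mated minus virgin, 1.10 for double minus single mated and 0.12 for single mated minus virgin, beside medians of -0.020, -0.029 and 0.0012 over all probe sets. Any pair of these comparisons shares the arrays of 1 group. The 8 genes were chosen with earlier results of these data known, so the counts are a description and not an independent test.

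**Figure D1:**
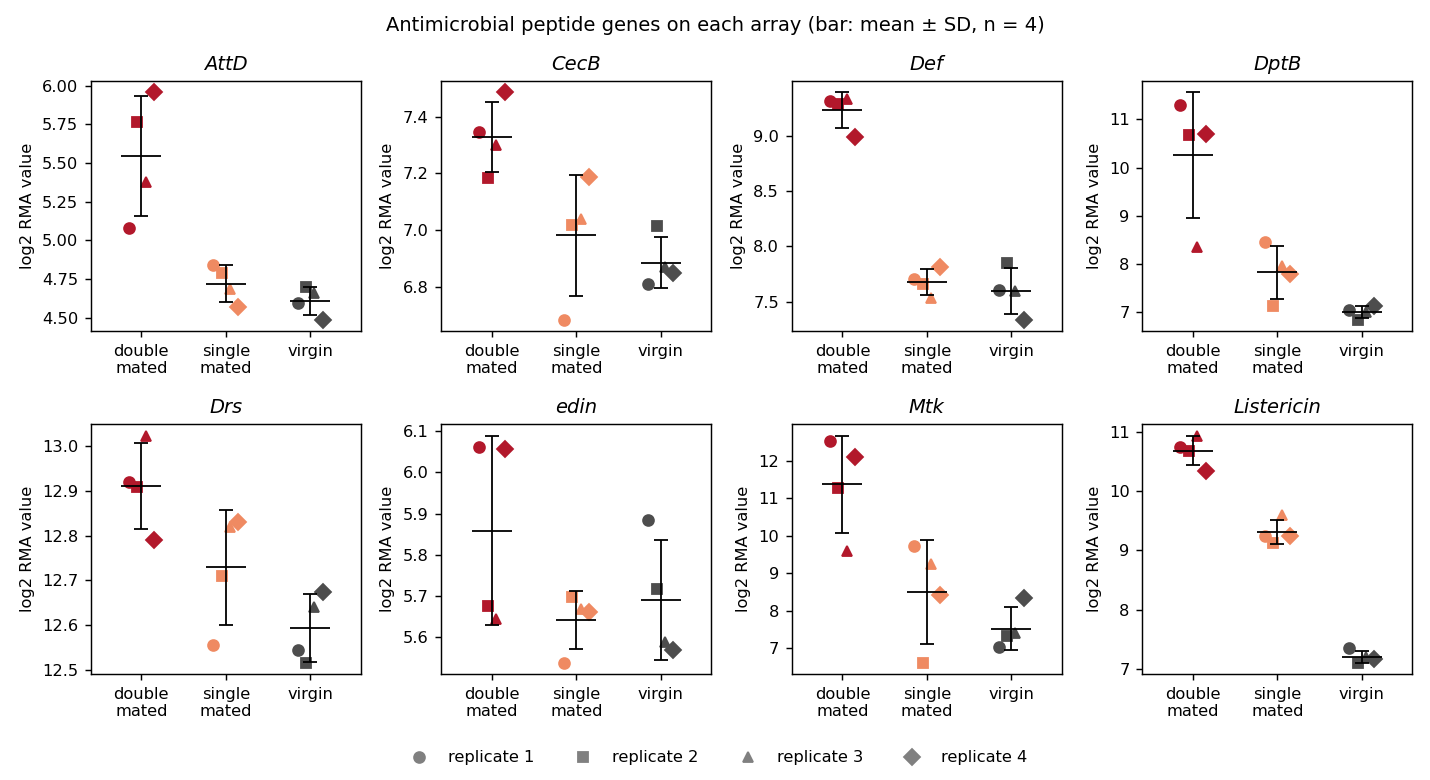
Each panel plots the log2 RMA value of 1 gene on every array, with double mated females at the left, single mated females in the middle and virgins at the right; marker shapes give the replicate number of the labels and bars the mean ± SD of 4 arrays. Vertical scales differ between panels and do not start at 0. Listericin shows 3 separate groups, Def and AttD a raised double mated group alone, and Mtk and DptB a wide scatter among mated females.

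Listericin encodes an antibacterial peptide first described for its activity against Listeria, and its induction in cultured fly cells needs both the receptor PGRP-LE and the JAK/STAT pathway. It measured 10.74, 10.68, 10.93 and 10.35 in double mated replicates 1 to 4, 9.25, 9.13, 9.60 and 9.24 in single mated replicates 1 to 4, and 7.35, 7.10, 7.21 and 7.16 in virgin replicates 1 to 4. The 3 groups did not overlap, and Listericin was the 1 gene of the 8 for which all 8 mated arrays lay above every virgin array. The increase of double over single mated females was 2.59-fold (95% interval 2.17 to 3.09, adjusted p = 2.61e-05), and that of single mated females over virgins was 4.29-fold (3.60 to 5.12, adjusted p = 4.51e-07). Double mated females stood 11.1-fold above virgins (9.31 to 13.3, adjusted p = 2.94e-10). On the log2 scale the step from virgins to single mated females was 2.10 (SE 0.12) and the step to double mated females a further 1.37 (SE 0.12).

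Def, the defensin gene, whose peptide acts mainly on Gram-positive bacteria, was raised in double mated females alone. It measured 9.31, 9.28, 9.33 and 8.98 in double mated replicates, 7.71, 7.66, 7.53 and 7.81 in single mated replicates and 7.60, 7.85, 7.60 and 7.34 in virgin replicates. Every double mated array lay above every other array, by a gap of 1.17 to the highest single mated array and 1.14 to the highest virgin array, while single mated and virgin arrays overlapped. Def was 2.93-fold higher in double than in single mated females (95% interval 2.50 to 3.43, adjusted p = 3.52e-06) and 3.10-fold higher than in virgins (2.65 to 3.62, adjusted p = 7.67e-07). For single mated females against virgins the estimate was 1.06-fold (0.904 to 1.24, adjusted p = 0.696).

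Mtk, the gene of the antifungal and antibacterial peptide metchnikowin, which Toll and Imd can both induce, had the largest fitted increase of all 18769 probe sets between double and single mated females. It measured 12.55, 11.29, 9.61 and 12.09 in double mated replicates, 9.73, 6.60, 9.25 and 8.42 in single mated replicates, and 7.04, 7.33, 7.39 and 8.34 in virgin replicates. All double mated arrays lay above all virgin arrays, but the lowest double mated array, replicate 3, lay under the highest single mated array, replicate 1, and single mated replicate 2 was the lowest of the 12. Mtk was 7.37-fold higher in double than in single mated females, with a wide interval of 2.83 to 19.2 (adjusted p = 0.0191), and 14.5-fold higher than in virgins (5.57 to 37.7, adjusted p = 4.44e-04).

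Of the 5 calls between the mated groups, that for Mtk was the 1 that ended under any alternative tried. The log2 change of 2.88 became 2.49 without double mated replicate 1 (adjusted p = 0.0521), and the call also ended with a trended and robust variance model (adjusted p = 0.0697) and in a fit of the mated arrays alone (adjusted p = 0.0509). It was 2.25 without single mated replicate 2, and 3.47 without double mated replicate 3. Without that replicate 3 the change against virgins was 4.45, in place of 3.86. For single mated females against virgins Mtk stood at 1.97-fold, with an interval of 0.756 to 5.12 (adjusted p = 0.381).

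DptB, a diptericin gene and a classical Imd target whose peptide acts on Gram-negative bacteria, followed the same course. Its values were 11.30, 10.67, 8.35 and 10.71 in double mated replicates, 8.45, 7.12, 7.96 and 7.79 in single mated replicates and 7.04, 6.84, 7.01 and 7.13 in virgin replicates. Double mated replicate 3 fell just under single mated replicate 1, and all double mated arrays were above all virgin arrays. DptB was 5.38-fold higher in double than in single mated females (95% interval 2.70 to 10.7, adjusted p = 0.00863) and 9.53-fold higher than in virgins (4.79 to 19.0, adjusted p = 1.38e-04). Without double mated replicate 3 these changes, 2.43 and 3.25 on the log2 scale, became 3.06 and 3.89.

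DptB was not called in single mated females against virgins, where its single mated replicates 1, 3 and 4 lay above all virgin arrays and replicate 2 inside their range. The estimate was 1.77-fold (95% interval 0.889 to 3.53, adjusted p = 0.297). The call appeared in a fit of single mated and virgin arrays alone (adjusted p = 0.0286) and without double mated replicate 3 (adjusted p = 0.0300), both of which leave the estimate at 0.82 on the log2 scale and change the spread against which it is judged.

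AttD and CecB, an attacin and a cecropin gene, belong to families active mainly against Gram-negative bacteria. AttD measured 5.08, 5.76, 5.38 and 5.96 in double mated replicates, 4.84, 4.79, 4.68 and 4.57 in single mated replicates and 4.59, 4.69, 4.66 and 4.49 in virgin replicates. Double mated arrays were all above the others, and single mated and virgin arrays overlapped. AttD was 1.77-fold higher in double than in single mated females (95% interval 1.43 to 2.19, adjusted p = 0.00523) and 1.91-fold higher than in virgins (1.55 to 2.37, adjusted p = 2.41e-04). Its signal was dim, with a 12-array mean at the 36.9th percentile of all probe sets, and no detection calls were used here.

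CecB measured 7.34, 7.18, 7.30 and 7.49 in double mated replicates, 6.68, 7.02, 7.04 and 7.19 in single mated replicates and 6.81, 7.01, 6.87 and 6.85 in virgin replicates. The double mated arrays lay above all virgin arrays, and the lowest of them lay 0.0032 under the highest single mated array. CecB rose 1.36-fold in double mated females against virgins (95% interval 1.18 to 1.57, adjusted p = 0.00319). Against single mated females the estimate was 1.27-fold (1.10 to 1.47), which missed the threshold at an adjusted p of 0.0550 and passed it without single mated replicate 4 (0.0262) or with dim probe sets left out (0.0414). Cecropin genes are close in sequence, and hybridization of related transcripts to this probe set was not tested.

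Drs, the gene of the antifungal peptide drosomycin and the usual reporter of Toll activity, has a high signal in all 12 arrays. Its double mated arrays ranged from 12.79 to 13.02, its single mated arrays from 12.55 to 12.83 and its virgin arrays from 12.51 to 12.67. Double mated females exceeded virgins with no overlap, by 1.25-fold (95% interval 1.12 to 1.39, adjusted p = 0.00488). The step between the mated groups was 1.13-fold (1.02 to 1.27, adjusted p = 0.173) and that between single mated females and virgins 1.10-fold (0.984 to 1.23, adjusted p = 0.283), so the single mated group could be told apart from neither neighbour. Its 12-array mean stood at the 98.4th percentile of all probe sets.

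edin, which encodes a short secreted peptide induced by infection, was the 1 gene of the 8 not called in any comparison. Its double mated arrays ranged from 5.64 to 6.06, its single mated arrays from 5.54 to 5.70 and its virgin arrays from 5.57 to 5.88, so that all 3 groups overlapped. Double mated replicates 1 and 4 were at 6.06 each, and the other double mated arrays were inside the virgin range. The estimates were 1.16-fold for double against single mated females (95% interval 0.998 to 1.36), 1.12-fold for double mated females against virgins (0.965 to 1.31) and 0.967-fold for single mated females against virgins (0.830 to 1.13). edin was also the 1 gene whose mean was lower in single mated females than in virgins, 5.64 ± 0.07 against 5.69 ± 0.15. Its signal was dim, with a 12-array mean of 5.73, at the 47.3rd percentile of all probe sets. The lack of a call therefore does not show that edin was unchanged.

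**Figure D2:**
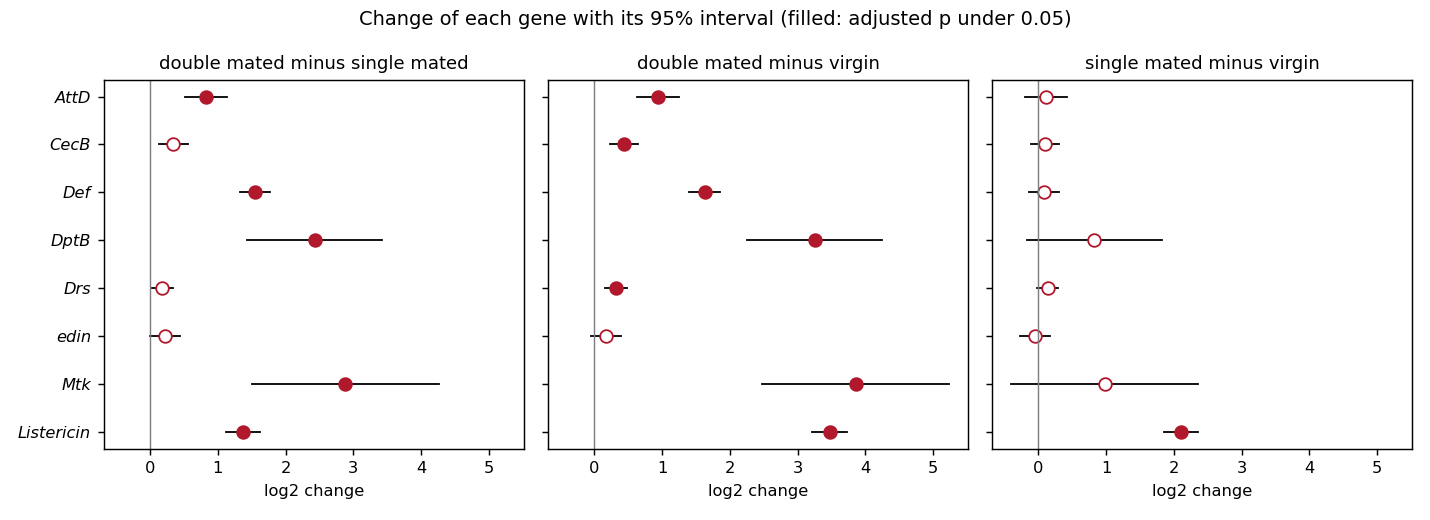
The log2 change of each gene is plotted with its 95% interval from limma for 3 comparisons, filled where the adjusted p over all probe sets was under 0.05. Double minus single mated has 5 filled points, double mated minus virgin 7, and single mated minus virgin 1, Listericin; the intervals of Mtk and DptB are the widest.

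Groups that do not overlap gave a count that does not depend on a variance model. Double mated arrays were all above virgin arrays for 7 of 8 genes, against 11.6% of all probe sets. They were all above single mated arrays for 3 of 8, AttD, Def and Listericin, against 5.63% of all probe sets. Single mated arrays were all above virgin arrays for 1 of 8, Listericin, against 8.28% of all probe sets.

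The genes differed widely in scatter. Within groups, the SD of Mtk was 1.14 and that of DptB 0.82, ranking 3 and 12 from the top among the 18769 probe sets, for which the median within-group SD was 0.12. In double mated females the highest array exceeded the lowest 7.68-fold for Mtk and 7.71-fold for DptB, in single mated females 8.74-fold and 2.50-fold, and in virgins 2.47-fold and 1.23-fold. Drs, with a within-group SD of 0.10, was steadier than the median probe set. Listericin, with a change of 3.47 in double mated females against virgins beside 3.86 for Mtk, had a within-group SD of 0.19.

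The scatter was ordered alike in some genes and differently in others, a pattern noticed after the values were seen and given without a test. In double mated females DptB, edin and Mtk all ran from replicate 1 at the top through 4 and 2 to 3 at the bottom. For edin, replicates 1 and 4 were close, at 6.061 and 6.056, and replicate 4 came first after cyclic loess and after median centring. Def, Drs and Listericin all ran from replicate 3 at the top through 1 and 2 to 4 at the bottom. Replicate 3 was thus the lowest of its group for 3 genes and the highest for 3 others, also after cyclic loess and after median centring of the arrays. In single mated females Mtk and DptB again shared 1 order, with replicate 1 at the top and then 3, 4 and 2, while in virgins both were highest in replicate 4 and the other arrays ran differently. Listericin was also lowest in single mated replicate 2, below replicates 3, 1 and 4 in that order. AttD and CecB were highest in double mated replicate 4, the array that stood apart.

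**Figure D3:**
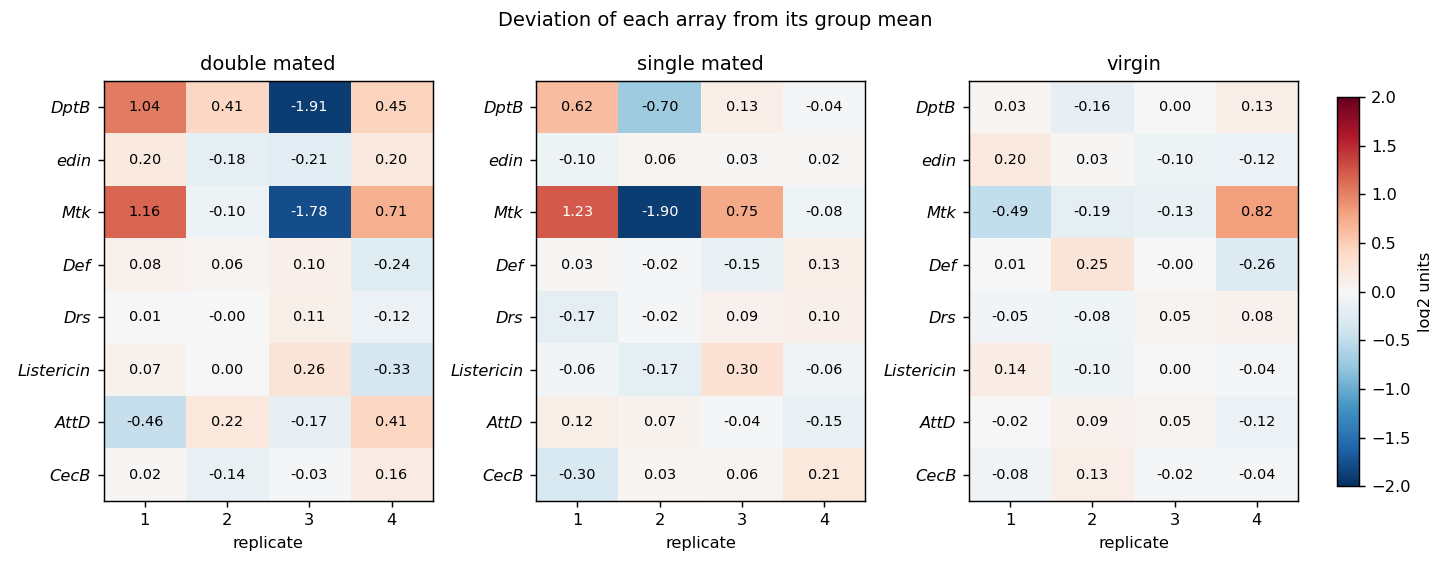
Each cell gives the deviation of an array from the mean of its own group in log2 units, for double mated females at the left, single mated females in the middle and virgins at the right. DptB and Mtk are low in double mated replicate 3 and single mated replicate 2, by -1.91 and -1.78 and by -0.70 and -1.90, where Def, Drs and Listericin lie between -0.17 and 0.26.

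PGRP-SB1, a secreted peptidoglycan recognition protein gene that infection induces, had its extremes on the same arrays as DptB and Mtk in double mated females. It measured 11.29, 10.64, 9.72 and 10.37 in double mated replicates, 9.94, 8.90, 10.25 and 9.97 in single mated replicates and 8.79, 9.28, 8.83 and 9.20 in virgin replicates. It was highest in double mated replicate 1 and lowest in replicate 3, and single mated replicate 2 was the lowest of its group as for Mtk and DptB, but its highest single mated array was replicate 3. PGRP-SB1 rose by 1.48 (SE 0.30, adjusted p = 0.00190) in double mated females against virgins, and its change of 0.74 between the mated groups did not pass (SE 0.30, adjusted p = 0.171). Of 7 peptidoglycan recognition genes measured, 2 were called higher and 0 lower in double mated females against virgins, the other being PGRP-LB (0.36, SE 0.12, adjusted p = 0.0378), whose call ended under 6 of 18 alternatives (adjusted p from 0.0586 to 0.120). For double against single mated females and for single mated females against virgins, limma called 0 of 7, with 3 of 7 at an unadjusted p under 0.05 in each, and without double mated replicate 4 it called 1 higher between the mated groups. Counts in this and the later gene lists stand beside shares of all probe sets. Those called higher and lower were 12.3% and 15.7% for double mated females against virgins. They were 3.55% and 1.74% between the mated groups, and 4.49% and 5.17% for single mated females against virgins.

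Transducers carry the Imd signal from the receptor to Relish, and the list of them also held Rel itself, pirk, akirin and Charon. Of 11 measured, 1 was called higher and 5 lower in double mated females against virgins, with a median change of -0.08 (0.02 after cyclic loess), and 0 higher and 2 lower against single mated females. Among those lower against virgins were Fadd (-0.40, SE 0.06, adjusted p = 1.34e-04), the adaptor that links Imd to the caspase Dredd, and the kinase subunits key (-0.39, SE 0.05, adjusted p = 9.37e-05) and IKKbeta (-0.50, SE 0.08, adjusted p = 3.23e-04). Charon (-0.34, adjusted p = 7.91e-04) and akirin (-0.23, adjusted p = 0.0189) were the others. The 2 called lower against single mated females were Fadd (-0.22, adjusted p = 0.0392) and IKKbeta (-0.31, adjusted p = 0.0381), and these calls ended under 14 and 10 of 18 alternatives, the replicate block among them (adjusted p = 0.0876 and 0.0903). The 1 called higher was Rel, which encodes Relish, by 0.20 (adjusted p = 0.0341), and its call ended under 7 of 18 alternatives (adjusted p from 0.0566 to 0.185). In single mated females against virgins 1 of 11, key, was called lower, and 2 without double mated replicate 4.

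Of 15 Toll pathway genes, 3 were called higher and 3 lower in double mated females against virgins, with a median change of -0.0076, and 2 higher and 0 lower against single mated females. Over all probe sets 12.3% were called higher and 15.7% lower against virgins, and 3.55% and 1.74% against single mated females. nec, the serpin that restrains the Toll cascade, rose by 0.43 (SE 0.07, adjusted p = 0.00240) against single mated females and by 0.47 (SE 0.07, adjusted p = 1.26e-04) against virgins, with no overlap in either case. The ligand gene spz fell by 0.30 (SE 0.07, adjusted p = 0.00481) and the kinase gene pll by 0.31 (SE 0.07, adjusted p = 0.00433) in double mated females against virgins. Without double mated replicate 4 the counts were 3 higher and 6 lower against virgins and 5 higher and 1 lower against single mated females, and the median change between the mated groups was -0.0064, in place of 0.08. The number higher against virgins was 1 after cyclic loess and 1 after median centring of the arrays. In single mated females against virgins 0 of 15 were called higher and 1 lower, and 2 lower without double mated replicate 4.

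Bomanins, short peptides secreted after Toll activation, were grouped with other Toll effectors, and 9 of 18 listed genes were measured. Of these 9, 7 were called higher in double than in single mated females, with a median change of 0.97. In double mated females against virgins 6 were called higher and 1 lower, with a median change of 0.51. In single mated females against virgins 0 were called higher and 3 lower. The number lower was 2 after cyclic loess, 6 after median centring of the arrays and 5 without double mated replicate 4. The median change of the list in that comparison was -0.33. The 3 called lower were BomBc2 (-0.99), BomS6 (-0.65) and BomT2 (-0.42). For these genes the difference between the mated groups includes a fall in single mated females. BomS5 and BomBc3 changed by 0.25 and 0.15 in single mated females against virgins, and neither was called. BomS2 averaged 12.43 ± 0.22 in double mated females, 11.09 ± 0.17 in single mated females and 11.32 ± 0.15 in virgins, and BomS5 11.24 ± 0.35, 9.93 ± 0.41 and 9.68 ± 0.14. BomBc2 averaged 11.25 ± 0.20, 10.30 ± 0.53 and 11.28 ± 0.11 in the same groups, and BomS6 12.42 ± 0.33, 11.91 ± 0.27 and 12.56 ± 0.06. Both were called lower in single mated females against virgins, and neither was called in double mated females against virgins.

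Among 7 other measured antimicrobial peptide genes, mostly of the drosomycin-like family, 1 was called higher in double mated females against virgins. That gene, Drsl5, changed by 0.45 (SE 0.14, adjusted p = 0.0240), and its call ended without any of 5 single arrays (adjusted p from 0.0555 to 0.0816). Limma called 0 of 7 for double against single mated females, with 2 at an unadjusted p under 0.05, and 0 of 7 for single mated females against virgins, with 0 at that level. Anp, Drsl1, Drsl2, Drsl3 and Drsl6 were dim, averaging 3.89, 5.91, 5.18, 4.65 and 4.29 in double mated females, under the lowest array median of 5.97. For these genes the lack of a call does not show that they were unchanged. Drsl4 and Drsl5 averaged 10.11 and 10.56 there. The remaining 8 genes of that list, other attacins, cecropins, a diptericin and drosocin, were not analysed here. Of 10 JAK/STAT and Turandot genes, the list nearest to the known control of Listericin, vir-1, a gene known to be induced by viral infection, was called higher in double mated females against virgins (0.65, SE 0.12, adjusted p = 8.44e-04). Limma called 0 of these 10 for double against single mated females, with 1 at an unadjusted p under 0.05, and 0 for single mated females against virgins, with 2 at that level. Without double mated replicate 4, 1 of the 7 peptide genes and 1 of these 10 were called higher between the mated groups, and 2 of the 10 higher and 1 lower in double mated females against virgins.

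**Figure D4:**
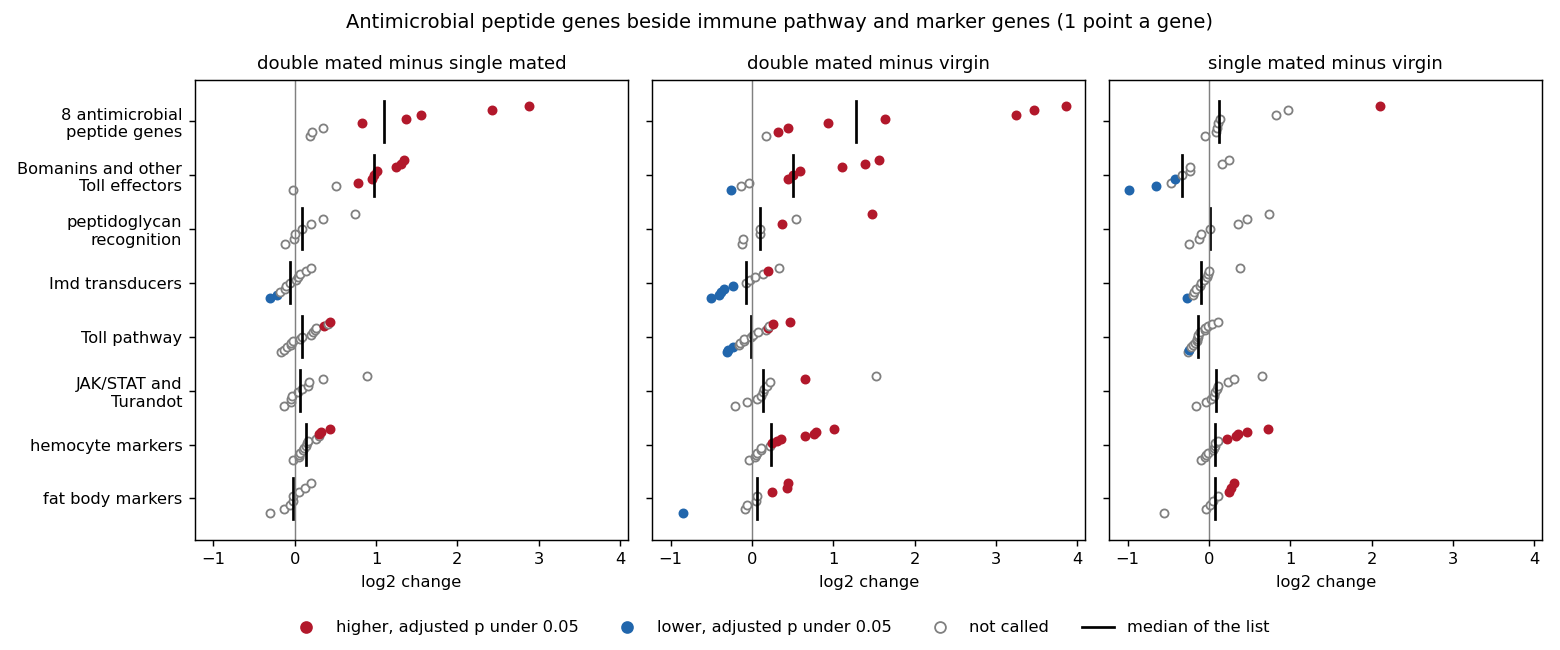
Log2 changes of the 8 antimicrobial peptide genes and of measured genes in immune pathway and marker lists are plotted for 3 comparisons, 1 point a gene, red where called higher, blue where called lower and open where not called, with a black line at the median of each list. The 8 peptide genes and the Bomanin list lie furthest right for double minus single mated, with medians of 1.10 and 0.97, while Imd transducers and Toll pathway genes lie near 0, with medians of -0.05 and 0.08. For single mated minus virgin the medians of the peptide genes and the Bomanin list were 0.12 and -0.33.

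Hemocytes and fat body are sources of these peptides. Of 14 hemocyte markers, 3 were called higher in double than in single mated females, 7 in double mated females against virgins and 5 in single mated females against virgins, with none lower and median changes of 0.14, 0.23 and 0.07. The mean over the 14 ran from 8.05 to 8.16 on double mated arrays, from 7.90 to 8.00 on single mated arrays and from 7.75 to 7.83 on virgin arrays, without overlap. The collagen genes Col4a1 and vkg rose by 0.66 (SE 0.07, adjusted p = 1.73e-05) and 0.77 (SE 0.08, adjusted p = 1.73e-05) in double mated females against virgins, and NimB2, a secreted hemocyte protein gene, by 0.78 (SE 0.09, adjusted p = 3.05e-05). The markers eater, He, Hml, lz, PPO1, PPO2 and ush were not called in any comparison. Their changes in double mated females against virgins ran from -0.04 (Hml) to 0.22 (PPO2). Between the mated groups the vkg call ended under 11 of 18 alternatives (adjusted p from 0.0509 to 0.111). The part of the hemocyte markers in the changes of the peptide genes was not tested.

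Of 8 fat body markers, 0 were called in limma for double against single mated females, with 1 at an unadjusted p under 0.05. Their mean ran from 10.13 to 10.28 on double mated arrays, from 10.15 to 10.27 on single mated arrays and from 10.12 to 10.17 on virgin arrays, so that the 3 groups overlapped. Against virgins 3 were called higher and 1 lower in double mated females, and 3 higher and 0 lower in single mated females. Desat1 and FASN1, which act in fatty acid synthesis, rose by 0.45 (SE 0.07, adjusted p = 1.85e-04) and 0.43 (SE 0.08, adjusted p = 0.00104) in double mated females. The 1 called lower there was Lsp2, which changed by -0.85 (SE 0.22, adjusted p = 0.00815) with no overlap. bmm, Fbp1, Fbp2 and Mtp were not called in any comparison. In single mated females against virgins the Desat1 and FASN1 calls ended under 8 and 7 of 18 alternatives. Of 10 midgut markers, 1 was called higher in double than in single mated females, 8 in double mated females against virgins and 6 in single mated females against virgins, the chymotrypsin-like protease gene Jon99Fi rising by 1.52 (SE 0.19, adjusted p = 5.52e-05) in double mated females against virgins. Their mean ran from 13.05 to 13.41 on double mated arrays, from 12.99 to 13.20 on single mated arrays and from 12.47 to 12.76 on virgin arrays. Jon65Aiii, another of these markers, rose by 0.70 (SE 0.08, adjusted p = 4.11e-05) in double mated females against virgins. The 1 called between the mated groups was yip7 (0.30, SE 0.07, adjusted p = 0.0315), and that call ended under 7 of 18 alternatives. The yip7 call in single mated females against virgins ended under 6 of 18. Without double mated replicate 4, 3 midgut markers were called higher between the mated groups, 1 fat body marker was called higher between them after cyclic loess, and after median centring of the arrays 1 was called higher in single mated females against virgins. The part of midgut and fat body tissue in the changes of the peptide genes was not tested.

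Male markers were examined because mating transfers male material to the female. Of 15 male accessory gland genes limma called 0 in each of the 3 comparisons, with 0, 1 and 2 at an unadjusted p under 0.05 for double against single mated females, double mated females against virgins and single mated females against virgins. Of 13 testis genes it likewise called 0 in each, with 3, 1 and 0 at that level. In double mated females against virgins 1 accessory gland gene was called higher after cyclic loess, 3 testis genes were called lower after median centring of the arrays, and 1 was called lower without double mated replicate 4, as was 1 between the mated groups. The mean over the accessory gland genes was 4.17 ± 0.10 in double mated females, 4.18 ± 0.03 in single mated females and 4.16 ± 0.04 in virgins. The accessory gland gene Acp95EF averaged 7.01 and the testis gene Mst98Ca 6.26 in double mated females. All the others averaged under 5.97, the lowest array median, in every group. At such dim signals the counts of 0 do not show whether male RNA was present.

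The genes most like the 8 peptide genes over the 12 arrays were found by Pearson correlation with the mean of their standardized values, as a description, since the 12 points share 3 groups. The 6 closest of 11974 other genes were sdt (r = 0.966), Csk (0.966), CG16826 (0.963), bon (0.961), dbo (0.960) and Bbd (0.960). Bbd averaged 12.46 ± 0.18 in double mated females, 11.78 ± 0.21 in single mated females and 11.39 ± 0.09 in virgins, and the other 5 had changes of 0.21 to 0.36 between double and single mated females. The 4 genes closest to Listericin alone were rgn (r = 0.985), CG2765 (0.984), Nadk1a (0.982) and Pcyt1 (0.980), whose changes in single mated females against virgins were 0.27 to 0.46, beside 2.10 for Listericin.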

How the data were processed

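RNA of whole females was hybridized to Affymetrix Drosophila Genome 2.0 arrays, 12 in all. The deposited values are log2 RMA summaries, 1 a probe set and array, per the submitters' processing notes (RMA, affy). Versions are not given in the sources used here. No read depth applies, and precision is limited by the number of arrays. The labels name no hybridization batch.

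Of 18952 probe sets, 183 Affymetrix controls were left out. Groups were taken from sample titles. Group means were fitted to the 12 arrays with limma 3.58.1 in R 4.3.3 (lmFit, eBayes), and p-values were adjusted by Benjamini-Hochberg over 18769 probe sets. The code was tested on simulated data. Probe sets were named by the platform annotation, with symbols updated through RefSeq (Release 6). Of 172 genes in 12 lists, 130 had a probe set with 1 symbol. Where several existed, that with the highest mean was used. In each list up to 3 called genes with the smallest p for double mated against virgin were picked for naming. Of those picked, apolpp, Vm26Aa, Vm32E and Vm34Ca are not described here. Some further genes, Rel, Lsp2, BomBc2 and BomS6 among them, were added after their values were seen. Members and lists were chosen with earlier results of these data known. Alternatives covered normalization, dim probe sets, variance model, array weights, arrays fitted, threshold, pairing and each array left out.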

Additional observations from a re-analysis of the deposited data

Results flagged for a closer look

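Def on double mated replicate 4 lay apart from the other arrays of its group, at 8.98 against 9.28 for the nearest of them, a gap of 86.7% of the group's range. It was the 1 such value among 24 groups of 4 arrays examined (8 genes in 3 groups), where chance alone gives about 5%. The same array stood apart over all probe sets, and without it the change of Def was 1.63 between the mated groups and 1.71 against virgins, beside 1.55 and 1.63 with it.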

How the results depend on the processing

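The 24 changes (8 genes, 3 comparisons) were refitted under up to 19 alternatives, 453 fits in all, of which 444 kept direction and call. Fits without an array of the group not compared could not change an estimate, only the spread against which it is judged. The threshold of 0.01 is not among these fits, and at it the Mtk call between the mated groups (adjusted p = 0.0191) would also end. The 3 lost calls, all for Mtk between the mated groups, and the 4 gained ones, 2 each for CecB and DptB, are given with those genes. Of changes that were never called, Def in single mated females against virgins ran from -0.0065 (without virgin replicate 4) to 0.16 when single arrays were left out, and edin from -0.089 to 0.017 (without virgin replicate 1). Of the 8 genes, leaving out single arrays called 4 to 6 for double against single mated females, 7 to 7 for double mated females against virgins and 1 to 2 for single mated females against virgins, and fitting single mated and virgin arrays alone called 2. Over all probe sets, 992 were called between the mated groups, against 2195 with array weights, 661 with the replicate block, 550 with mated arrays alone, 307 at an adjusted p under 0.01, and 527 to 2171 without single arrays, the highest without double mated replicate 4. For double mated females against virgins 5268 were called, and 4333 to 5975 without single arrays. For single mated females against virgins 1813 were called, against 2953 with array weights, 606 at an adjusted p under 0.01 and 857 to 2698 without single arrays. The share of calls that were higher was 43.9% for double mated and 46.5% for single mated females against virgins, but 29.1% and 25.0% after median centring of the arrays and 53.4% and 63.2% after cyclic loess. Replicate numbers did not pair the arrays: the 12 correlations of same-numbered arrays ran from -0.26 to 0.14, and the replicate block changed no call among the 24. A choice between probe sets of a gene could not be tried, since each had 1.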
